A study of Mus musculus with 114 samples.

Results

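The 5 genes that close the negative feedback loop of the mammalian circadian clock, Per1, Per2, Per3, Cry1 and Cry2, were followed in ribosome-bound RNA of mouse prefrontal cortex. They were chosen by gene symbol, as the 5 rows among 13101 gene rows of the count table whose Ensembl identifier maps to these names, and all 5 passed the filter on low counts. In the RiboTag method, mice carry a haemagglutinin tag on a ribosomal protein in 1 chosen cell type, and ribosomes are pulled out of a tissue lysate through the tag together with the RNA on them. The study names parvalbumin (PV) interneurons, which are fast-spiking inhibitory cells, and pyramidal cells, which are the excitatory projection neurons of the cortex, and sampled Ribo-tag mice of both sexes at 6 times of day. Times are zeitgeber times (ZT, hours after lights on), at ZT2, ZT6, ZT10, ZT14, ZT18 and ZT22.

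Of 114 libraries 113 were used. They comprised 55 whose title starts with PV (28 female, 27 male) and 58 whose title starts with C (29 female, 29 male), with 8 to 10 libraries for each prefix and time. The genotype is given as Ribo-tag for every library; the Cre driver, the age of the animals and whether libraries came from separate animals could not be read from the labels, so p-values measure the spread between these libraries. The separate entry for cell type goes against this prefix in 114 of 114 libraries, with parvalbumin interneurons entered for those titled C and pyramidal cells for those titled PV, and the libraries are here called PV-titled and C-titled. All 8 PV interneuron markers were in the table, and their summed level was 474 ± 135 CPM (edgeR's unit of counts scaled to a common library total; mean ± SD, n = 55) in PV-titled and 105 ± 17.5 (n = 58) in the C-titled ones, with no overlap of the ranges (235.2 to 917 against 70.9 to 149.4). Pvalb, which encodes parvalbumin, stood at 38.9 ± 18.5 against 1.07 ± 0.918 CPM, and Slc17a7, the vesicular glutamate transporter of pyramidal cells, at 721 ± 288.9 against 1710 ± 555 CPM. The markers thus went with the titles and not with the cell type entries. The markers of glia and vessels (25 of 26 in the table) summed to 2187 ± 305.7 CPM in PV-titled and 849 ± 180 in the C-titled ones. Of the libraries used, 8 stood apart from the others of their prefix by their correlation over all genes, 3 PV-titled (at ZT10, ZT14 and ZT22) and 5 C-titled (at ZT2 and ZT6). Several results that rest on them are given with and without them. Unless stated, counts of libraries above or below a median, orders of times and of genes, and the genes most correlated with each member were taken over all libraries. The library numbers inside the titles form 2 ranges with a gap between them, each holding every time and both sexes, and the range was a term of the fits unless another is named.

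PER and CRY proteins form complexes that enter the nucleus and hold back the activator pair CLOCK and BMAL1 (the product of Arntl), which switches on the Per and Cry genes through a short DNA element called the E-box. The complexes are then marked by casein kinases and removed by ubiquitin ligases, and the cycle starts again after about a day. PER1 and PER2 act as scaffolds of the complex, CRY1 and CRY2 carry most of its repressing activity, and PER3 is a member of the family whose loss leaves the mouse rhythm largely in place. In the cortex, as in other tissues outside the central clock of the hypothalamus, these genes cycle and are also open to signals from neuronal activity and hormones, of which Per1 and Per2 are the best known targets.

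The promoters are shown because the transcript profiles below are those of genes known to be driven through E-boxes and through the D-box, the element bound by DBP, TEF, HLF and the repressor NFIL3. The set of RefSeq promoters used here held 5 windows for 4 of the 5 members and none for Per2. Each window is the 250 bases before the annotated start, read 5′ to 3′ on the gene's strand (GRCm38.p6). The 4 windows that hold a searched element follow, with the element in capitals.
Per1, chr11:69098699-69098948, plus strand: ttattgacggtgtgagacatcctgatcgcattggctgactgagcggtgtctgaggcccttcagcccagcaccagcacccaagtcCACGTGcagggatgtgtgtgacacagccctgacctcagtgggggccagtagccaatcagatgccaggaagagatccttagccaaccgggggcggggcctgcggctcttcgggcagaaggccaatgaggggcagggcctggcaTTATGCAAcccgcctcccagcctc
Per3, chr4:151044666-151044915, minus strand: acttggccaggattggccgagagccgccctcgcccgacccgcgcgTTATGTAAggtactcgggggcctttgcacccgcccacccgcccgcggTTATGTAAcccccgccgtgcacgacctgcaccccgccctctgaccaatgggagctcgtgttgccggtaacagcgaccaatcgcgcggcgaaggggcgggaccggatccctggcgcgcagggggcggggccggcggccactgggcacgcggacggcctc
Cry1, chr10:85185055-85185304, minus strand: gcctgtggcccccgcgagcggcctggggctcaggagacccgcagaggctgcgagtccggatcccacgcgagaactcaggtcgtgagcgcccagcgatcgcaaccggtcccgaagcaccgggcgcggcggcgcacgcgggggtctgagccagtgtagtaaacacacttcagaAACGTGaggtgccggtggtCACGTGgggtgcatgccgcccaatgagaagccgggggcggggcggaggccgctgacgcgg
Cry2, chr2:92434070-92434319, minus strand: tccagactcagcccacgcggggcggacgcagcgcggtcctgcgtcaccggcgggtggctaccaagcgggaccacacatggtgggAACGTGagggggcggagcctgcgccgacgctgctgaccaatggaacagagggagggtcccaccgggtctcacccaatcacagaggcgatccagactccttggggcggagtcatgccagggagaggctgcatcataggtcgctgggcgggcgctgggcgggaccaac
The elements searched on both strands were the E-box CACGTG, its variant CACGTT, which reads AACGTG on the other strand, the D-box as TTATGTAA or TTATGCAA, and the cAMP response element TGACGTCA; no match overlapped another. Per1 held an E-box at positions -166 to -161 from the start and a D-box at -24 to -17. Its other RefSeq start, further downstream at the same locus, had no match in its window. Per3 held the D-box TTATGTAA at -205 to -198 and again at -158 to -151, and no E-box. Cry1 held the E-box at -60 to -55 and the variant at -79 to -74. Cry2 held the variant at -166 to -161. Over 32851 RefSeq windows of this length, 6.02% held CACGTG, 3.85% CACGTT, 0.819% TTATGTAA, 0.694% TTATGCAA and 1.546% TGACGTCA. A match is a description of the letters only.

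The level of the 5 genes differed between PV-titled and C-titled libraries in both directions. Per3 was 3.62-fold higher and Per2 1.19-fold higher in PV-titled libraries than in the C-titled ones, Cry2 was 1.66-fold lower and Cry1 1.37-fold lower, and Per1 did not pass the test. The comparison is the one between the cell types that the design text names. The summed glial and vessel markers were also higher in PV-titled libraries (2187 against 849 CPM) and were not a term of these tests. Their part in the level differences was not tested. In all, 4 of 5 members were called, against 87.5% of all 13053 genes tested (44.3% higher and 43.2% lower in PV-titled libraries; 50.7% of the calls were higher, and 61.7% without TMM scaling), so that a call by itself sets the members apart from nothing. In bulk RNA of this kind, fewer tagged cells and less RNA per cell cannot be told apart. The prefix was tested with edgeR's quasi-likelihood test with time, sex and range as terms, and p-values were adjusted over all genes by Benjamini and Hochberg, with 0.05 as the threshold; this holds for every adjusted p below unless another tool is named.

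Per1 (ENSMUSG00000020893, chromosome 11, 69095217 to 69109960, plus strand, GRCm38) had a lowest, median and highest level of 6.40, 25.3 and 47.9 CPM in the 55 PV-titled libraries and of 8.27, 24.8 and 70.4 CPM in the 58 C-titled libraries. The groups lay over each other, with 28 of 55 PV-titled libraries above the C-titled median. The difference was -0.043 in log2 (SE 0.082, adjusted p = 0.618, unadjusted p = 0.597), with means of 26.8 ± 8.95 and 27.9 ± 14.5 CPM. Its sign was not stable: without TMM scaling it was 0.16 (adjusted p = 0.0762), but the median of all genes was then 0.21 in place of 0.0084, and Per1 stayed below it. The difference was 0.12 in the first range of library numbers (adjusted p = 0.292) and -0.21 in the second (adjusted p = 0.0998).

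Per2 (ENSMUSG00000055866, chromosome 1, 91415982 to 91459324, minus strand) ran from 17.2 through a median of 54.0 to 101 CPM in PV-titled libraries and from 14.9 through 45.8 to 76.9 CPM in C-titled libraries. The groups overlapped widely, and 33 of 55 PV-titled libraries exceeded the median of the C-titled ones. The difference was 0.25 in log2 (SE 0.08, adjusted p = 0.00209). It was 0.011 in the first range of library numbers (adjusted p = 0.928) and 0.47 in the second (adjusted p = 1.46e-05), and 0.15 in females alone (adjusted p = 0.196) against 0.34 in males alone (adjusted p = 0.00171).

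Per3 (ENSMUSG00000028957, chromosome 4, 151003652 to 151044665, minus strand, inside the Camta1 locus on the same strand with no shared exon) ran from 59.5 through a median of 263.7 to 3643 CPM in PV-titled libraries and from 28.3 through 71.3 to 755 CPM in C-titled libraries. Nearly all PV-titled libraries were high: 54 of 55 lay above the C-titled median, and 4 of 58 C-titled libraries lay above the PV-titled median. Without the libraries that stand apart, the highest C-titled one had 247.2 CPM and lay below the PV-titled median. The difference was 1.86 in log2 (SE 0.18, adjusted p = 2.52e-16), and 2.03 when the 8 libraries that stand apart were left out (adjusted p = 4.13e-28), when the means were 346 ± 221 (n = 52) and 83.4 ± 40.9 CPM (n = 53). It was 2.23 in the first range (adjusted p = 4.78e-08) and 1.51 in the second (adjusted p = 4.76e-12). Reads from introns of Camta1 that lie over exons of Per3 cannot be told apart from reads of Per3, and their share was not tested.

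Cry1 (ENSMUSG00000020038, chromosome 10, 85131700 to 85185064, minus strand) ran from 11.2 through a median of 27.4 to 47.5 CPM in PV-titled and from 14.3 through 38.2 to 64.9 CPM in the C-titled ones. The PV-titled libraries were the lower ones, with 51 of 55 below the C-titled median. The difference was -0.46 in log2 (SE 0.06, adjusted p = 3.85e-12), and -0.51 and -0.41 within the ranges (adjusted p = 1.15e-09 and 1.69e-05).

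Cry2 (ENSMUSG00000068742, chromosome 2, 92403646 to 92434043, minus strand) ran from 83.4 through a median of 170.8 to 269.6 CPM in PV-titled and from 91.3 through 285.5 to 368.5 CPM in the C-titled ones. None of the 55 PV-titled libraries (0 of 55) reached the C-titled median, and 2 of 58 C-titled libraries lay below the PV-titled median. Without the libraries that stand apart, the lowest C-titled one had 181.1 CPM and lay above the PV-titled median. The difference was -0.73 in log2 (SE 0.06, adjusted p = 5.16e-23), and -0.88 and -0.58 within the ranges (adjusted p = 8.09e-12 and 5.37e-13). Exons of Cry2 overlap those of D930015M05Rik on the opposite strand, a gene of unstated function at 8.68 ± 3.05 against 14.6 ± 4.13 CPM; whether counting used the strand is not given, so reads of the overlap cannot be assigned to either gene with certainty.

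**Figure D1:**
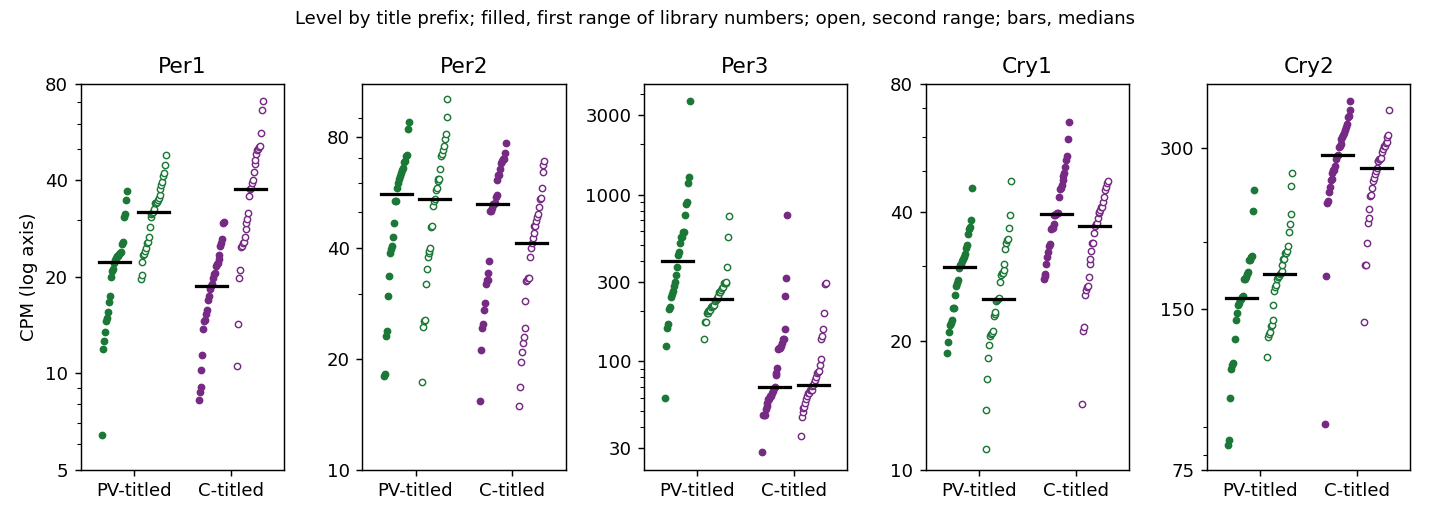
Level of each of the 5 genes (CPM, log axis) in the 55 PV-titled and 58 C-titled libraries, 1 point per library. The PV-titled points sit above the C-titled ones for Per3 (54 of 55 above the C-titled median) and below them for Cry2 (0 of 55 above it), and overlap for Per1.

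RNA that is mostly retained in the nucleus moved with the prefix as well. The summed level of 6 nuclear long noncoding RNAs (Malat1, Neat1, Meg3, Miat, Rian and Snhg11) was 15202 ± 7655 CPM in PV-titled and 2456 ± 3050 CPM in the C-titled ones, with ranges of 5202 to 53976 and 706 to 23548. With this sum as a term of the fit, an alternative chosen after seeing the data, the prefix difference was 0.013 in log2 for Per3 (adjusted p = 0.977), 0.11 for Per2 (adjusted p = 0.617), -0.30 for Cry1 (adjusted p = 0.0526) and -0.47 for Cry2 (adjusted p = 0.00105), while 63.5% of all genes were called. Cry2 therefore passed in this fit and Per2, Per3 and Cry1 did not. Cry2 was at -0.73 without the sum in the fit. Per1 went from -0.043 without the sum to -0.30 with it (adjusted p = 0.116) and was not called. The sum and the prefix go together so closely that this fit cannot tell them apart for any member, Cry2 included.

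Per length of joined exons, the order of the 5 genes differed between the populations. In PV-titled libraries Per3 came first with 43.5 ± 53.0 CPM per kilobase, followed by Cry2 (26.5 ± 6.02), Per2 (9.07 ± 3.47), Cry1 (8.28 ± 2.20) and Per1 (4.76 ± 1.59). In C-titled libraries Cry2 led with 43.6 ± 8.35 CPM per kilobase, followed by Cry1 (11.4 ± 2.85), Per3 (11.2 ± 11.1), Per2 (7.56 ± 2.91) and Per1 (4.95 ± 2.57). Neighbours in this order differed by more than the larger SD for Cry2 over Per2 and Cry1 over Per1 in PV-titled libraries, and for Cry2 over Cry1 in C-titled libraries; the other neighbours did not. Per1 had the lowest mean per length in both. Among libraries Per3 had a coefficient of variation of 122% and 99.4% (PV-titled and C-titled), which became 63.8% and 49.1% without the 8 that stand apart; the latter was close to the 48.2% of Per1 in C-titled libraries. Cry2 varied the least, with 22.7% and 19.1%, and 20.2% and 13.2% without those 8.

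Across the day, Per1, Per2 and Cry1 cycled in both populations with a peak between ZT12 and ZT24, Cry2 passed the test in C-titled libraries, and Per3 passed in neither. A 24 h cosine was fitted in each prefix with sex and range as terms; amplitudes are given in log2, from the mean of the curve to its maximum. In PV-titled libraries 3 of 5 members were called (Per1, Per2 and Cry1), against 3.10% of 13047 genes. In C-titled libraries 4 of 5 were called (Per1, Per2, Cry1 and Cry2), against 27.0% of 13029 genes. All 7 of these fitted peaks fell between ZT12 and ZT24, where 58.4% of the called genes of PV-titled and 41.6% of those of C-titled libraries peaked. The median amplitude of all called genes was 0.29 in PV-titled and 0.19 in the C-titled ones, and all 7 called profiles were above the median of their population.

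Per2 had the widest swing of the called members. In PV-titled libraries its mean was 49.7 ± 11.5 CPM at ZT2 (n = 8), 27.8 ± 11.1 at ZT6 (n = 9), 38.2 ± 11.3 at ZT10 (n = 9), 72.2 ± 9.09 at ZT14 (n = 10), 70.6 ± 16.4 at ZT18 (n = 9) and 57.4 ± 14.97 at ZT22 (n = 10). The highest and the lowest time did not overlap: the 10 libraries of ZT14 ran from 61.2 through a median of 71.0 to 90.7 CPM and the 9 of ZT6 from 17.2 through 24.4 to 53.5 CPM. The ratio of these means was 2.60. The fitted amplitude was 0.65 (SE 0.08, adjusted p = 9.94e-07), 2.45-fold from trough to peak, with the peak at ZT17.9 (SE 0.46 h).

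In C-titled libraries Per2 stood at 42.5 ± 13.9 CPM at ZT2, 23.99 ± 6.81 at ZT6, 35.6 ± 15.3 at ZT10, 53.7 ± 7.40 at ZT14, 57.9 ± 12.3 at ZT18 and 52.4 ± 17.5 at ZT22. The low point was again ZT6, where the 10 libraries ran from 14.9 through 23.1 to 36.8 CPM, and 8 of the 9 libraries of ZT18 (33.1 through 63.0 to 69.4 CPM) lay above all of them. The amplitude was 0.59 (SE 0.08, adjusted p = 2.67e-06), 2.26-fold, with the peak at ZT18.6 (SE 0.51 h). Within the 2 ranges of library numbers the amplitude was 0.76 and 0.57 in PV-titled and 0.57 and 0.65 in the C-titled ones, and Per2 passed in each (adjusted p = 0.00283, 0.0276, 0.0219 and 0.00166). Per2 fell short in PV-titled males alone, at 0.53 (adjusted p = 0.276, unadjusted p = 0.000882), where 0.061% of all genes were called.

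Per1, the other scaffold, rose less. In PV-titled libraries its lowest mean was 21.98 ± 7.21 CPM at ZT2 (8 libraries, 12.6 through 22.4 to 35.2) and its highest 32.7 ± 6.46 at ZT14 (10 libraries, 21.98 through 33.2 to 42.2). These times overlapped, with 3 of the 10 libraries of ZT14 above all of ZT2. The amplitude was 0.40 (SE 0.07, adjusted p = 0.00046), 1.74-fold from trough to peak, with the peak at ZT14.7 (SE 0.63 h).

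In C-titled libraries Per1 ran from 22.6 ± 8.66 CPM at ZT22 (8.27 through 22.2 to 40.03) to 34.3 ± 12.01 at ZT18 (18.7 through 29.6 to 51.1), which again overlapped. The amplitude was 0.32 (SE 0.09, adjusted p = 0.0190) with the peak at ZT14.5 (SE 1.10 h). Without the libraries that stand apart the lowest mean was 21.6 ± 14.4 CPM at ZT2 (n = 8), and the amplitude was 0.37 (adjusted p = 0.0031). Per1 also differed between the ranges of library numbers, with 21.3 ± 7.17 CPM in the first and 31.8 ± 7.43 in the second in PV-titled, and 18.6 ± 5.85 and 37.2 ± 14.6 in C-titled libraries. Within the ranges the amplitude in PV-titled libraries was 0.53 (adjusted p = 0.0815, unadjusted p = 0.000145) and 0.30 (adjusted p = 0.173, unadjusted p = 0.00244). In C-titled libraries it was 0.43 (adjusted p = 0.0432, unadjusted p = 0.0011) and 0.23 (adjusted p = 0.460, unadjusted p = 0.284). In these smaller fits 0.153% and 0.307% of all genes were called in PV-titled, and 2.90% and 10.2% in C-titled libraries. Without the range as a term neither population passed, at 0.32 (adjusted p = 0.0688) and 0.29 (adjusted p = 0.188).

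Cry1, a repressor of CLOCK and BMAL1, also peaked between ZT12 and ZT24. In PV-titled libraries it was lowest at ZT6 with 22.2 ± 5.43 CPM (9 libraries, 11.2 through 22.9 to 30.04) and highest at ZT14 with 32.9 ± 7.55 (10 libraries, 22.1 through 34.1 to 47.5), and 7 of the 10 lay above all of ZT6. The amplitude was 0.31 (SE 0.06, adjusted p = 0.00779), 1.53-fold, with the peak at ZT16.4 (SE 0.79 h). Within the ranges it was 0.25 (adjusted p = 0.518, unadjusted p = 0.0221) and 0.38 (adjusted p = 0.113, unadjusted p = 0.000854), so neither range passed alone.

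In C-titled libraries Cry1 was lowest at ZT6 with 29.1 ± 6.91 CPM (10 libraries, 14.3 through 28.2 to 39.7) and higher from ZT14 to ZT22, with means of 45.1 ± 7.57, 42.4 ± 7.51 and 44.3 ± 8.43. The amplitude was 0.35 (SE 0.05, adjusted p = 7.22e-06), 1.63-fold, with the peak at ZT19.0 (SE 0.54 h). It was 0.33 and 0.36 within the ranges and passed in each (adjusted p = 0.0057 and 0.0191). Without the libraries that stand apart ZT10 had the lowest mean, at 29.7 ± 4.28 CPM (n = 9), beside 31.1 ± 5.46 at ZT6 (n = 7). The amplitude was then 0.31 (adjusted p = 6.33e-06).

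Cry2, the other cryptochrome, had the smallest swing. In C-titled libraries it was lowest at ZT6 with 235.6 ± 50.1 CPM (141.6 through 246.1 to 303.2) and highest at ZT18 with 315.1 ± 41.4 (245.6 through 317.8 to 368.5), and 6 of the 9 libraries of ZT18 lay above all of ZT6. The amplitude was 0.22 (SE 0.05, adjusted p = 0.00436), 1.36-fold, with the peak at ZT17.3 (SE 0.89 h). Without the libraries that stand apart, whose 5 C-titled members are at ZT2 and ZT6, the amplitude was 0.14 (adjusted p = 0.00483). Within the ranges it was 0.23 and 0.23, which did not pass (adjusted p = 0.208 and 0.0571, unadjusted p = 0.0294 and 0.00646). In PV-titled libraries the amplitude was 0.16 (SE 0.06, adjusted p = 0.216) with the fitted peak at ZT17.6, and the means ran from 144.9 ± 30.9 CPM at ZT10 to 191.7 ± 60.7 at ZT14. With limma's voom and quality weights Cry2 passed there, at 0.18 (adjusted p = 0.0254).

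Per3 had the highest single libraries and no call. In PV-titled libraries the mean was 234.3 ± 39.2 CPM at ZT2, 359 ± 194.4 at ZT6, 468 ± 364 at ZT10, 768 ± 1064 at ZT14, 363 ± 146.8 at ZT18 and 269.7 ± 232.5 at ZT22. The SD was larger than the mean at ZT14, where the 10 libraries ran from 122 through a median of 287.1 to 3643 CPM; without the library that stands apart the mean of that time was 449 ± 355. The amplitude was 0.59 (SE 0.16, adjusted p = 0.0778, unadjusted p = 0.00334) with the fitted peak at ZT13.0, and 0.31 (adjusted p = 0.329) with those that stand apart left out. Without the range as a term it passed, at 0.77 (adjusted p = 0.0217), and the first range was the higher one (588 ± 698 against 265.03 ± 119 CPM).

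In C-titled libraries the highest means of Per3 were at the times that hold the libraries that stand apart. It stood at 160 ± 222.3 CPM at ZT2 and 119 ± 104 at ZT6, and at 68.8 ± 29.0 and 61.6 ± 30.4 without those 5 libraries, in which it ran from 155.5 to 755 CPM. From ZT10 to ZT22 the means were 102 ± 48.2, 94.9 ± 33.3, 75.3 ± 20.6 and 89.3 ± 60.8. The fitted peak was ZT4.62 (amplitude 0.40, SE 0.17, adjusted p = 0.146) with all libraries and ZT14.3 (amplitude 0.23, adjusted p = 0.314) without the 5.

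**Figure D2:**
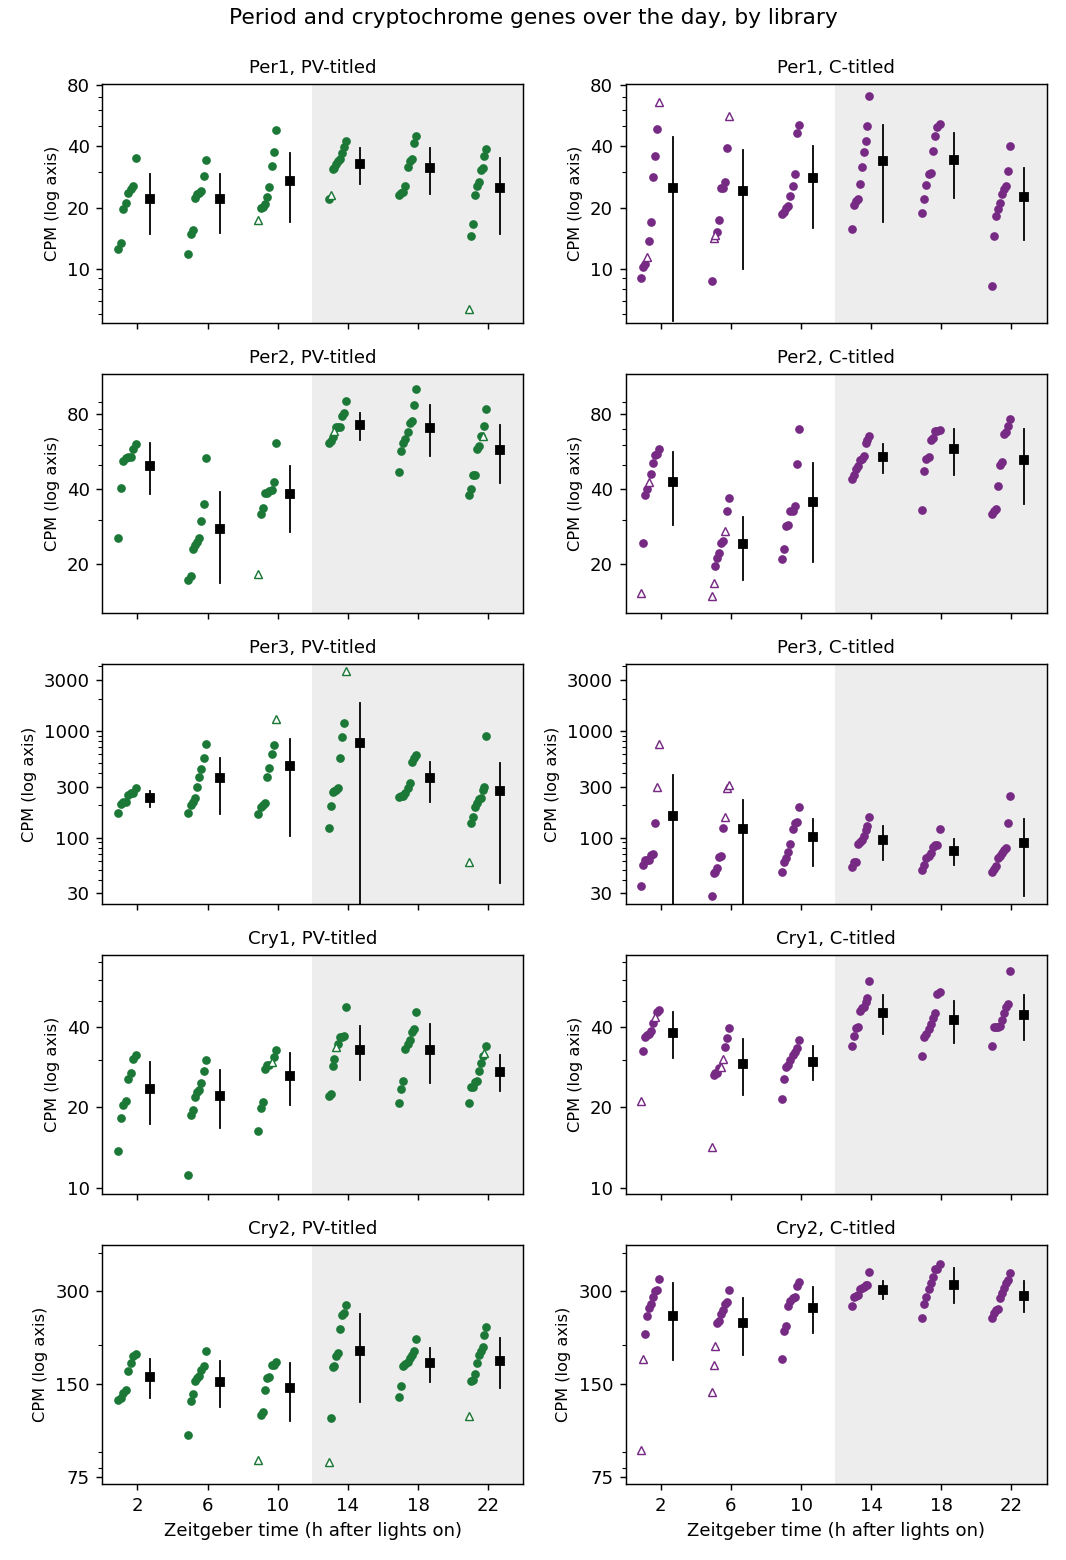
CPM (log axis) of each gene against zeitgeber time in hours, in PV-titled and C-titled libraries; points are libraries, triangles the 8 that stand apart, squares with bars the mean ± SD (bars that reach below the axis are clipped), and shading marks ZT12 to ZT24. Per2 is lowest at ZT6 in both populations (27.8 and 23.99 CPM), and the highest Per3 triangle is at 3643 CPM at ZT14 in PV-titled libraries.

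The rhythms of the 5 genes were not shown to differ between the populations. In a test of the difference itself, 0 of 5 members were called by edgeR, 0 by DESeq2 and 0 by limma, against 0.559% of 13053 genes by edgeR, and 2 of 5 (Per3 and Cry1) had an unadjusted p under 0.05. Per1 peaked 0.16 h later in PV-titled libraries than in the C-titled ones (95% interval -2.32 to 2.64 h), Cry2 0.26 h later (-2.92 to 3.45 h), and the peak of Per2 differed by -0.63 h (-1.98 to 0.71 h). The peak of Cry1 differed by -2.57 h (-4.45 to -0.68 h, that is, earlier in PV-titled libraries; size of the rhythm difference 0.22 in log2, unadjusted p = 0.0260, adjusted p = 0.286). For Per3 the rhythm difference was 0.90 (adjusted p = 0.0873), with fitted peaks 8.38 h apart (4.64 to 12.1 h), and 0.11 (adjusted p = 0.997) with the 8 left out. Each of these intervals holds shifts of more than an hour.

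**Figure D3:**
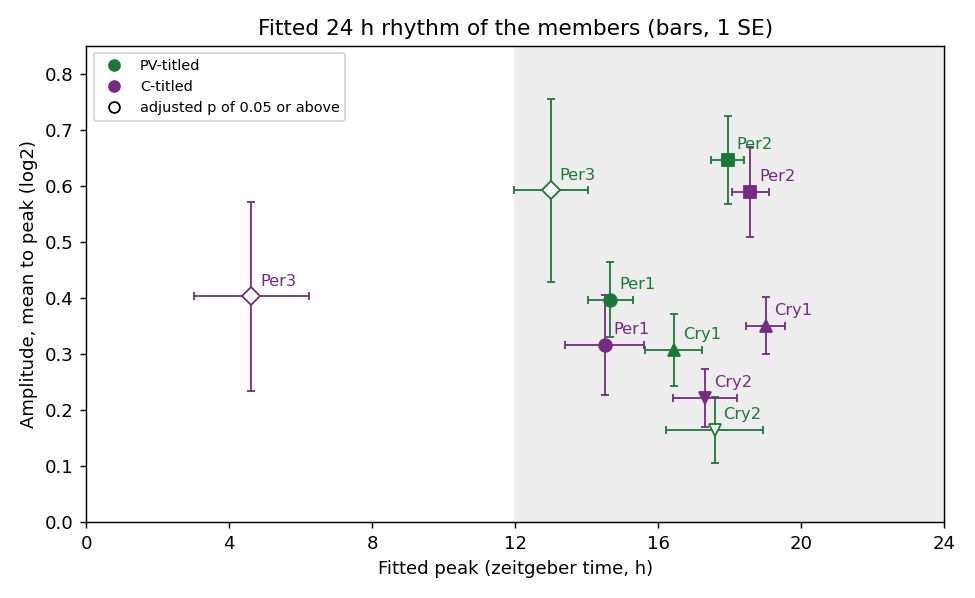
Fitted amplitude (log2, mean to peak) and fitted peak time (zeitgeber hours) of the 5 genes in PV-titled and C-titled libraries, with bars of 1 SE. The peaks of Per1, Per2, Cry1 and Cry2 lie between ZT14.5 and ZT19.0 in both populations, and those of Per3 at ZT13.0 and ZT4.62.

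Ordering the 6 times by their mean in each of the 10 profiles gave 50 neighbouring pairs, of which 2 differed by more than the larger SD. These were ZT2 over ZT10 for Per2 in PV-titled libraries and ZT2 over ZT10 for Cry1 in C-titled libraries. Across libraries of 1 population, with sex and range taken out, Per2 and Cry1 went up and down together (Pearson r = 0.52 in 55 PV-titled and 0.67 in 58 C-titled ones), as did Per2 and Cry2 (0.45 and 0.72). Per3 and Cry2 went opposite ways, with r = -0.52 and -0.71, and -0.51 and -0.28 without the libraries that stand apart. These libraries share the times of day, so the values describe joint profiles and joint library differences alike.

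Females and males did not show a difference that passed in any of the 5 genes. Of 10 tests of the level (5 genes in 2 populations) 0 were called by edgeR, DESeq2 or limma, 0 had an unadjusted p under 0.05 in any of these, and the background was 0.0307% of genes in PV-titled and 0.184% in the C-titled ones (0.0461% higher and 0.138% lower in males). For instance, Per2 stood at 53.1 ± 22.2 CPM in 28 female and 53.1 ± 18.5 in 27 male PV-titled libraries, and at 46.1 ± 17.5 and 42.4 ± 16.6 in 29 and 29 C-titled libraries. Of 10 tests of a sex difference in rhythm 0 were called by edgeR, DESeq2 or limma, and 0 had an unadjusted p under 0.05; by edgeR 0.00% of all genes were called in each population.

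The wider clock around the 5 genes gave the setting. In each population the activator Arntl peaked away from the Per and Cry genes: at ZT23.5 in PV-titled (amplitude 0.30, SE 0.05, adjusted p = 9.59e-05) and ZT0.73 in C-titled libraries (0.22, SE 0.04, adjusted p = 0.000302). Of 26 tested genes in the other clock lists (29 listed), 11 cycled in PV-titled and 19 in the C-titled ones; the background of these counts and of those of the single lists was 3.10% and 27.0% of all genes tested. Among 4 activators, 1 (Arntl) was called in PV-titled and 3 (Npas2, Clock and Arntl) in the C-titled ones. Among 4 nuclear receptors that act on the Arntl gene, 2 (Nr1d1 and Nr1d2) and 3 (those and Rorb) were called. Of 7 outputs and other repressors, 6 (all but Nfil3) and 7 were called.

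The enzymes and partners that modify, remove or bind PER and CRY proteins were called in 2 of 11 in PV-titled and 6 of 11 in the C-titled ones. Csnk1d, a casein kinase that phosphorylates PER proteins, peaked at ZT19.4 (amplitude 0.22, SE 0.06, adjusted p = 0.0381) and ZT19.0 (0.14, SE 0.03, adjusted p = 0.00616). Usp2, a deubiquitinase, peaked at ZT11.1 (0.35, SE 0.05, adjusted p = 1.80e-06) and ZT10.3 (0.33, SE 0.04, adjusted p = 4.35e-07). In C-titled libraries Cipc, which binds CLOCK, peaked at ZT13.9 (0.19, SE 0.04, adjusted p = 0.00264), and Gsk3b and Skp1a were called there as well. By level, 9 of these 11 differed between the prefixes, where 87.5% of all genes tested did, and 8 of them were lower in PV-titled libraries (43.2% of all genes), among them Skp1a (-1.35 in log2, SE 0.05, adjusted p = 6.76e-48), Csnk1d (-0.53, SE 0.05, adjusted p = 1.21e-19) and Btrc (-0.43, SE 0.04, adjusted p = 5.30e-20). The median over the list was -0.35 in log2, beside 0.0084 over all genes tested. Of the other lists, 3 of 4 activators differed in level (Clock 0.50, SE 0.05, adjusted p = 5.73e-16, and Arntl2 1.82, SE 0.09, adjusted p = 6.73e-37, higher in PV-titled libraries; Npas2 -0.22, SE 0.07, adjusted p = 0.00253), as did 3 of 4 nuclear receptors (2 higher, 1 lower) and 7 of 7 outputs and other repressors (1 higher, 6 lower); against the same background, nothing is read from these counts. The rhythm difference between prefixes was called for 1 of the 26, Dbp, and for 0.559% of all genes.

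Each member had its own nearest profiles, taken as the 3 genes with the highest Pearson correlation of log2 CPM over the libraries of a population after the means of sex and range were taken out. For Per1 these were Dbp (r = 0.71), Sphk2 (0.68) and Ccnd2 (0.68) in 55 PV-titled libraries and Neurod2 (0.86), Tle3 (0.80) and Mnt (0.79) in 58 C-titled libraries. For Per2 they were Camkk1 (0.75), Synpo (0.73) and Brinp2 (0.69), and Egr1 (0.87), an immediate early gene, Pfkfb3 (0.86) and Tgfb3 (0.84). For Cry1 they were Amz1 (0.60), Spata2l (0.55) and Glt8d2 (0.53), and Ric8b (0.80), Tmem185a (0.79) and Slc15a4 (0.78). For Cry2 the overlapping D930015M05Rik came first in both (0.87 and 0.94), followed by 2900097C17Rik (0.76) and Elfn2 (0.74), and by Ints5 (0.91) and Adcy3 (0.90).

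Over all libraries, those that stand apart included, Per3 had the closest companions of the 5, and they were not clock genes of the lists. These correlations were not computed without the libraries that stand apart. They were Slc24a5 (r = 0.96), an ion exchanger, Rdh13 (0.96), a retinol dehydrogenase family member, and Pan3 (0.96), a part of a poly(A) nuclease, in PV-titled libraries, and Arglu1 (0.95), a splicing cofactor, Rdh13 (0.95) and Ric1 (0.95) in C-titled libraries. Rdh13 was the gene named in both. In the PV-titled library of 3643 CPM of Per3 it stood at 1717 CPM, and in the C-titled library of 755 CPM at 553 CPM. Over the libraries Per3 also went with the summed nuclear RNAs (r = 0.65 in PV-titled and 0.44 in the C-titled ones, 0.49 and 0.38 without those that stand apart). It went against the summed pyramidal markers (-0.45 and -0.70, and -0.51 and -0.76 without those that stand apart). It went as well with the share of counts on no gene (0.48 and 0.46, falling to 0.32 and 0.15 without those libraries) and with the summed astrocyte markers (0.41 and 0.58, falling to 0.069 and 0.26). Their part in the level of Per3 was not tested beyond the fit with the nuclear sum given above.

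**Figure D4:**
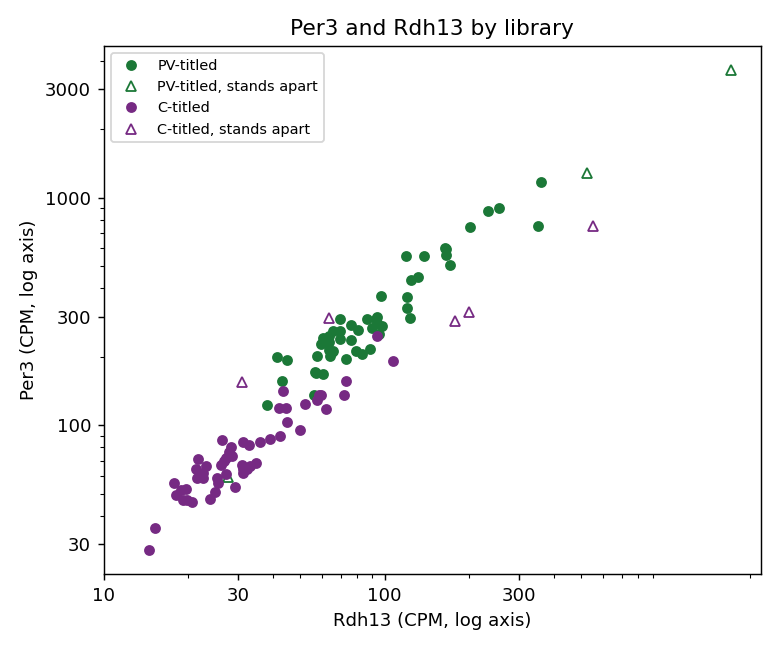
CPM of Per3 against CPM of Rdh13 (both axes log) in the 55 PV-titled and 58 C-titled libraries, 1 point per library, with triangles for the 8 that stand apart. The points follow 1 line in each population (r = 0.96 and 0.95 after sex and range are taken out), and the library at 3643 CPM of Per3 and 1717 CPM of Rdh13 lies at its upper end.

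Counts assigned to genes ran from 19098081 to 39463892 in PV-titled libraries and from 24559670 to 44077429 in the C-titled ones. Reads counted on no gene made up 61.0% ± 2.78 in PV-titled and 53.1% ± 1.33 in the C-titled ones. With the summed glial and vessel markers as a term, each of the 10 rhythm tests stayed on its side of the threshold, and so it was with the summed nuclear RNAs. The glial and vessel sum includes the oligodendrocyte markers. On their own these markers went in C-titled libraries with Per2 (r = 0.63, and 0.55 without those that stand apart) and Cry2 (0.59 and 0.42), while the whole glial and vessel sum had r = -0.14 and -0.38. Their summed level there was lowest at ZT6 (194.1 ± 29.0 CPM, n = 10) and highest at ZT18 (247.6 ± 25.6 CPM, n = 9). Their part in the rhythms of Per2 and Cry2 was not tested.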

How the data were processed

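The authors deposited read counts per gene in 1 table of 114 library columns, made with HTSeq against GRCm38 after FastQC, per the submitters' processing notes, which also list DESeq2; the aligner, annotation and strand setting are not named by any source used here. Per the labels, cDNA came from the SMART-seq HT kit and libraries from Nextera Flex. All values were whole numbers. Of 13101 gene rows 13051 matched a symbol in GENCODE vM21, the source of coordinates. For 1 column the sex in its name differs from the title it would match, and it was not used. No library was a copy of another of the same prefix, time and sex: the lowest chi-square per gene was 32.5 in 100 PV-titled and 14.0 in 112 C-titled pairs. Counts on no gene were left out of library sizes.

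Tests used R 4.3.3 and edgeR 4.0.16 (TMM scaling, filterByExpr by prefix, time and sex, quasi-likelihood F tests, Benjamini-Hochberg adjustment over all genes, threshold 0.05), checked on simulated data. CPM were computed after TMM scaling. Alternatives used limma 3.58.1 and DESeq2 1.42.0. A library stood apart where its median correlation fell more than 5 scaled median absolute deviations below its prefix. Counting intervals are not given, since reads without molecular identifiers are not separate molecules. The 5 genes, lists and tests were chosen with earlier results of these data known. All members are named, along with other clock genes that pass, and the 3 most correlated genes of each; some genes of the clock lists are not reported here.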

Additional observations from a re-analysis of the deposited data

Results flagged for a closer look

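Of 60 groups of 8 to 10 libraries (5 genes, 6 times and 2 prefixes), 8 held a library far from the others of its group. For values that follow a normal distribution, chance alone gives such a library in about 1 of 20 groups. CPM were taken without logs and need not follow that distribution, so the rate does not measure an excess here. Of the 8 libraries, 3 are among those that stand apart over all genes. For Per3 the distant library was the highest in 5 groups: 3643 CPM at ZT14 and 901.6 CPM at ZT22 in PV-titled libraries, and 754.8 CPM at ZT2, 119.1 CPM at ZT18 and 247.2 CPM at ZT22 in C-titled libraries. The next highest library of the PV-titled ZT14 group had 1176 CPM of Per3. For Per2 it was the highest PV-titled library of ZT6, at 53.52 CPM against a group median of 24.4. For Cry1 it was the lowest C-titled library of ZT6, at 14.26 CPM against a median of 28.2, and the highest of ZT22, at 64.89 CPM against 41.4.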

How the results depend on the processing

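Each level, rhythm and sex result of the 5 genes was recomputed under up to 21 alternatives, 20 of them planned and the nuclear RNA term added after the data were seen; 637 of 695 values kept their direction and their side of the threshold, and the causes of the others were not tested. The prefix difference (log2) of Per3, Cry1 and Cry2 kept its sign in all that were run and its call in all but the fit with the nuclear RNA sum, where Per3 was 0.013, Cry1 -0.30 and Per2 0.11 without a call, and Cry2 kept it. Per2 lost its call in the first range of library numbers (0.011), in females alone (0.15) and without replicate set 5 (range over the sets left out 0.13 to 0.35). Per1, never called, turned positive without TMM scaling (0.16), in the first range (0.12) and without set 4 or 5 (range -0.12 to 0.052).

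Rhythm calls were lost in fits within 1 range or 1 sex and in others. Over all genes, the share with a called rhythm went from 3.10% to between 0.061% (males) and 6.42% (limma) in PV-titled and from 27.0% to between 2.07% (females) and 33.2% (limma) in C-titled libraries, and that with a difference in rhythm from 0.559% to between 0% (first range) and 1.71% (no range term). In PV-titled libraries the amplitude of Per1 lost its call without the range term (0.32), in the first (0.53) and second range (0.30), in females (0.35) and in males (0.48); that of Per2 in males (0.53); and that of Cry1 in the first (0.25) and second range (0.38), in females (0.19), in males (0.43), with time as a factor (0.29) and without set 3, 4 or 5 (range 0.28 to 0.33). Calls were gained by Per3 without the range term (0.77) and Cry2 with limma's quality weights (0.18). In C-titled libraries Per1 lost its call without the range term (0.29), in the second range (0.23), in females (0.39) and males (0.26), with time as a factor (0.27), with an added 12 h term (0.32) and without set 2 or 3 (range 0.27 to 0.38). Cry2 lost it in the first (0.23) and second range (0.23), in females (0.23) and males (0.20) and with time as a factor (0.22). The rhythm difference of Per3 between prefixes passed without the range term (1.07). DESeq2, DESeq2 size factors and no filter on low counts changed no call.

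Sex differences (male minus female, log2), none called in any fit, changed sign in PV-titled libraries for Per1 in the second range (0.00012), Per2 with limma (-0.044), Cry1 in the first range (0.16) and Cry2 in the second (0.0055), and when a set number was left out for Per2 (range -0.0037 to 0.11) and Per3 (-0.089 to 0.12). In C-titled libraries that of Per3 did so without TMM scaling (0.017), with limma (0.17), in the second range (0.29) and without the libraries that stand apart (0.21), and between -0.23 and 0.38 when a set number was left out; that of Cry1 in the second range (-0.037); and that of Cry2 with limma (-0.0025), in the second range (-0.053) and between -0.00046 and 0.062 when a set number was left out.

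The set number at the start of the library code recurs across groups, but the labels do not say what it marks. The deviations of libraries with the same number had a median correlation of 0.090 (PV-titled pairs) and 0.23 (C-titled pairs), against -0.024 and -0.055 for other pairs. The range of library numbers was not taken out of these deviations, and libraries with the same set number mostly share it. Set number and range therefore cannot be told apart in these correlations. As 46.7% and 68.8% of the same-number pairs were over 0.1, and not every one, the number was not taken as a pairing. With it as a replicate block no call of a member changed; the sex difference of Per3 in C-titled libraries turned to 0.18, and the count of all genes whose rhythm differed between prefixes went from 73 to 20.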
